A study of Mus musculus with 12 samples.

Results

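Collagen genes were followed in the tibialis anterior of the mouse, a shin muscle made mostly of fast fibres, across 12 RNA-sequencing libraries. The deposited counts held 44 collagen symbols of the form Col, a type number, a and a chain number, among 26264 genes. Of these, 37 had at least 10 counts in at least 4 of the 12 libraries and are described here. They comprised 11 fibrillar chains, 5 basement membrane chains, 7 fibril-associated chains and 14 others. All 37 also passed the filter on low counts that preceded testing, which left 13499 genes. The 7 symbols below the limit were Col10a1, Col17a1, Col9a3, Col9a2, Col6a5, Col6a4 and Col4a6, and none of them exceeded 25 counts in a library.

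The groups were matrix gel, its vehicle phosphate-buffered saline (PBS) and uninjured muscle, with 4 libraries each. Per the labels' protocol, the gel legs received 50 µl at 6 mg/ml in the left tibialis anterior and the PBS legs 50 µl in the right, so side and treatment cannot be told apart. The series title describes the gel as extracellular matrix derived from a tissue and names acute and disuse injury of muscle. The sources used here do not give the strain, the age, the injury to these legs or the time to collection, so the parts of injection, injury and treatment in a difference from uninjured muscle cannot be told apart. The same injection protocol is attached to the uninjured samples, so the labels leave unclear whether those legs were injected. Same-numbered gel and PBS libraries are read here as the left and right leg of 1 animal, from an animal code and a side letter in the deposited names. The labels do not say so outright, and these pairs are called animals 1 to 4 below. Nothing in the labels says how the uninjured libraries relate to these animals.

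Collagens are trimeric proteins of the extracellular matrix. Fibrillar collagens, chiefly types I and III in muscle connective tissue, assemble into the fibrils that carry tension, and types V and XI are known to act in the start of fibril assembly and the control of fibril diameter. Type IV forms the network of the basement membrane around each muscle fibre and capillary, type VI forms beaded microfibrils next to it, and fibril-associated collagens coat fibril surfaces. In skeletal muscle most interstitial collagen is made by fibroblasts and fibro-adipogenic progenitors. In bulk RNA, a change in the number of cells of a type and a change in RNA per cell cannot be told apart.

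Library totals ran from 15626086 to 22182483 counts, and the collagens took 0.0819% to 0.707% of them. The muscle-fibre markers Acta1 and Ckm were abundant in every library, with at least 32030 and 8441 CPM (edgeR's unit, counts scaled for library depth and composition), although Ckm fell in gel over PBS (log2 fold change -0.92, adjusted p = 0.0023). Outside the collagens, gel library 3 differed from the rest of its group over the tested genes as a whole, and in macrophage markers. On the first principal component of all tested genes (50.7% of the variance) it lay at 5.39. The other gel libraries lay at -91.4 to -67.4, PBS libraries at 17.2 to 46.5 and uninjured libraries at 21.5 to 37.15. The 8 macrophage markers of gel library 3 summed to 73.0 CPM, against 778.6 CPM or more in the other gel libraries. They summed to 18.4 to 39.4 CPM in PBS libraries and 30.3 to 62.8 CPM in uninjured libraries. Low counts were mostly even: between 74.9% and 85.9% of the nonzero counts up to 20 in a library, and 52 of 60 such counts of the collagens. The sources used here do not say how reads of a pair were counted, and a low count may stand for fewer independent fragments than its size.

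Collagen reads made up a larger part of 3 of the 4 gel libraries. The share of all counts was 0.634%, 0.537%, 0.111% and 0.707% in gel libraries 1 to 4, against 0.223%, 0.125%, 0.0819% and 0.123% in PBS libraries 1 to 4 and 0.170%, 0.132%, 0.125% and 0.153% in uninjured libraries 1 to 4. Gel libraries 1, 2 and 4 were above every PBS and uninjured library, and gel library 3 lay inside the PBS range and below every uninjured library. With edgeR's quasi-likelihood test and Benjamini-Hochberg adjustment over all genes, 21 of the 37 collagens rose in gel over PBS muscle and 0 fell. The background was 16.6% of all tested genes higher and 13.2% lower. At an unadjusted p under 0.05 the counts were 24 higher and 0 lower, where 22.9% of all tested genes were higher and 18.9% lower. DESeq2 called 23 higher and 0 lower (18.2% and 15.8% of all genes), and voom 17 higher and 0 lower (13.8% and 14.2%). The 4 that voom did not call were Col5a1, Col6a2, Col16a1 and Col18a1 (adjusted p 0.051 to 0.15). The median log2 fold change was 1.29 over the collagens and 0.04 over all tested genes, and 33 of the 37 were positive.

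The number of members that passed varied by class. Of the fibrillar chains 10 of 11 rose, with a median log2 fold change of 2.07. For basement membrane chains the count was 1 of 5 with a median of 0.62, for fibril-associated chains 3 of 7 with 0.61, and for the others 7 of 14 with 1.19. The fibrillar count was 6 without gel library 4, without PBS library 3 and in the 2 groups alone. Over all genes 2236 were called higher in the main fit, and 1338, 1746 and 1513 in these fits. On leaving out 1 library the counts ran from 6 to 9 for fibrillar, 0 to 2 for basement membrane, 1 to 4 for fibril-associated and 3 to 11 for other chains. Groups did not overlap for 10 collagens, each of which had every gel library above every PBS library, a pattern found in 10.4% of all tested genes. These were Col2a1, Col11a1, Col24a1, Col27a1, Col14a1, Col20a1, Col7a1, Col8a1, Col23a1 and Col26a1. The classes were not compared by a test.

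**Figure D1:**
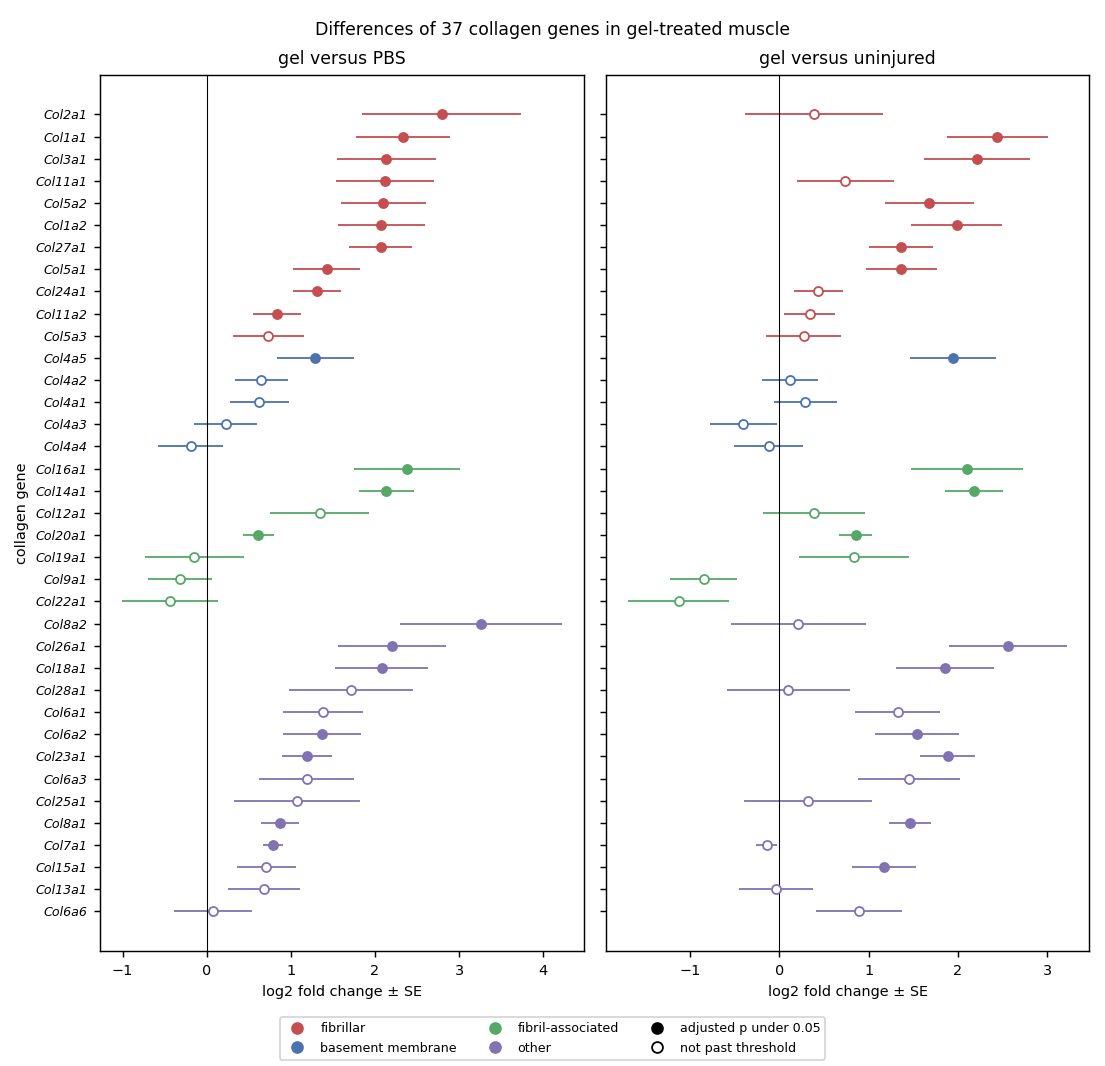
Log2 fold change with its SE (horizontal axis) of each of the 37 collagens (vertical axis, grouped by class) in gel over PBS muscle (left) and gel over uninjured muscle (right), 4 libraries a group; filled points have an adjusted p under 0.05. The filled points number 21 in the left panel and 16 in the right, all of them above 0.

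Gel library 3 carried the rise in some collagens and not in others. Among the 21 that rose, gel library 3 was above every PBS library in 12, within the PBS range in 8 and below it in 1, Col18a1. The 12 were Col2a1, Col11a1, Col11a2, Col24a1, Col27a1, Col4a5, Col14a1, Col20a1, Col7a1, Col8a1, Col23a1 and Col26a1. The 8 within the range were Col1a1, Col1a2, Col3a1, Col5a1, Col5a2, Col6a2, Col16a1 and Col8a2. Without gel library 3 the count was 25, of which 19 were also among the 21, Col11a2 and Col4a5 having dropped out and Col4a1, Col4a2, Col6a1, Col6a3, Col15a1 and Col28a1 having come in. Without gel library 4 the count was 10, without PBS library 3 it was 12, and without PBS library 2 it was 13. The number of all genes called higher moved too. It was 2236 in the main fit, 3171 without gel library 3 and 1338 without gel library 4. Without PBS library 3 it was 1746, and without PBS library 2 it was 1727.

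Within animals, gel library 3 was set beside the PBS leg of the same animal. The gel leg was above the PBS leg in 32, 34, 34 and 31 of the 37 collagens in animals 1 to 4, with median differences in log2 CPM of 0.86, 1.56, 0.80 and 1.82. Animal 3, whose gel leg stood apart from the other gel legs, had a median close to that of animal 1, but not through the same chains. Col1a1, Col1a2 and Col3a1 differed by 0.20, 0.42 and 0.62 in animal 3 and by 2.01, 1.49 and 1.55 in animal 1. Col24a1 and Col7a1 went the other way, with 1.85 and 1.10 in animal 3 and 0.95 and 0.52 in animal 1. In animal 3 Col12a1, Col16a1 and Col18a1 were below the PBS leg (-0.21, -0.66 and -0.38). The PBS leg of animal 3 was the lowest of the PBS legs in total collagen share. All 4 animals had gel above PBS for 25 collagens, 3 animals for 7 and 2 animals for 5. These within-animal counts were not computed over all tested genes, so no background share stands beside them. With the animal as a replicate block in the gel and PBS libraries alone, 18 collagens rose, 13 of them among the 21. Over all genes that fit called 1644 higher and 1327 lower. The same 8 libraries without the block gave 11, Col3a1, Col5a1, Col6a2, Col11a2, Col16a1, Col18a1, Col20a1 and Col4a5 being lost (adjusted p 0.053 to 0.095). Over all genes the fit without the block called 1513 higher and 1046 lower. In both of these fits Col2a1 and Col8a2 were below the filter on low counts and not tested.

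**Figure D2:**
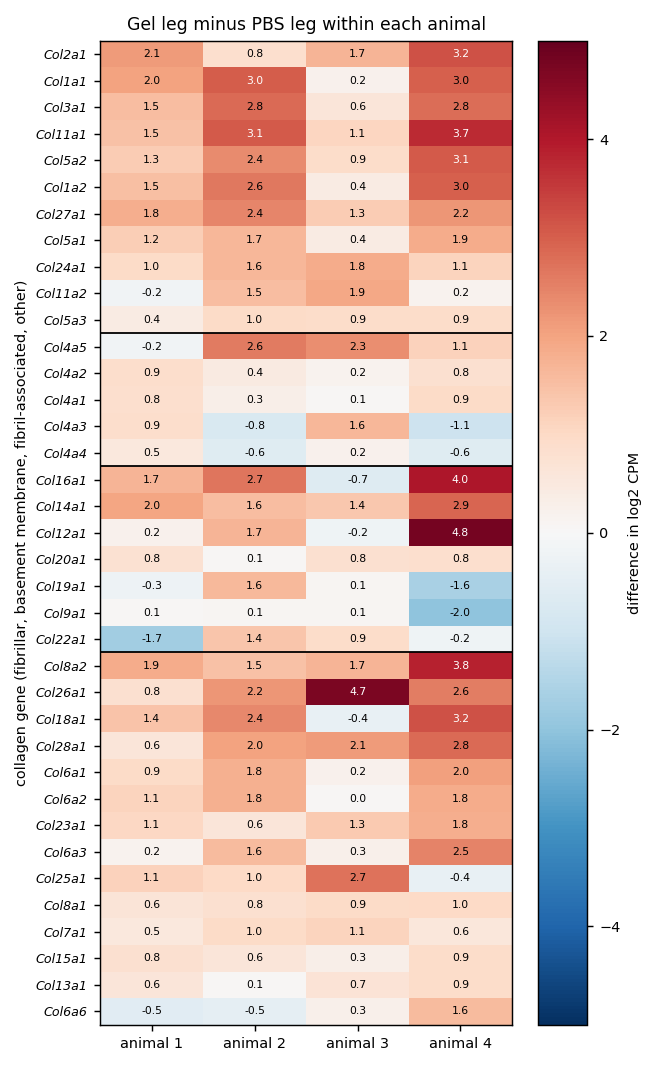
Difference in log2 CPM between the gel leg and the PBS leg (colour and printed value) for each collagen (rows, grouped by class with lines between classes) in animals 1 to 4 (columns). Most cells are above 0, including 34 of 37 in animal 3, and Col4a1 and Col4a2 run from 0.06 to 0.95. The matching share over all tested genes was not computed.

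Types I and III, the main fibril-forming collagens of muscle connective tissue, rose together. Col1a1, the chain present in 2 copies of the type I trimer, had 1814, 1514, 231 and 1712 CPM in gel libraries 1 to 4, against 451, 183, 200.2 and 214 CPM in PBS libraries 1 to 4. Uninjured libraries 1 to 4 had 329, 227, 169 and 245 CPM. Library 3 of the gel group was above 3 PBS libraries and below PBS library 1, which was the highest of its group by a wide margin. The log2 fold change in gel over PBS was 2.33 (SE 0.56, adjusted p = 0.012), with gel higher in 4 of 4 animals, and with the replicate block the call was lost (2.11, adjusted p = 0.058).

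Col1a2, which encodes the other type I chain, also had its lowest gel value in library 3. It had 725, 656, 139 and 948 CPM in gel libraries and 258, 105, 103 and 119.6 CPM in PBS libraries, and 203, 130.3, 139 and 152 CPM in uninjured libraries. Its log2 fold change over PBS was 2.07 (SE 0.51, adjusted p = 0.014), and it passed under all 20 alternative settings run for this comparison. Col3a1, the type III chain, had 892, 807, 136 and 1065 CPM in gel libraries, 305, 113, 88.3 and 155 CPM in PBS libraries and 207, 117, 120.1 and 181 CPM in uninjured libraries. As for type I, gel library 3 lay inside the PBS range. The log2 fold change of Col3a1 over PBS was 2.13 (SE 0.59, adjusted p = 0.022), and the call was lost without any 1 of gel libraries 1, 2 and 4 or PBS libraries 2 and 3 (adjusted p 0.051 to 0.070).

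**Figure D3:**
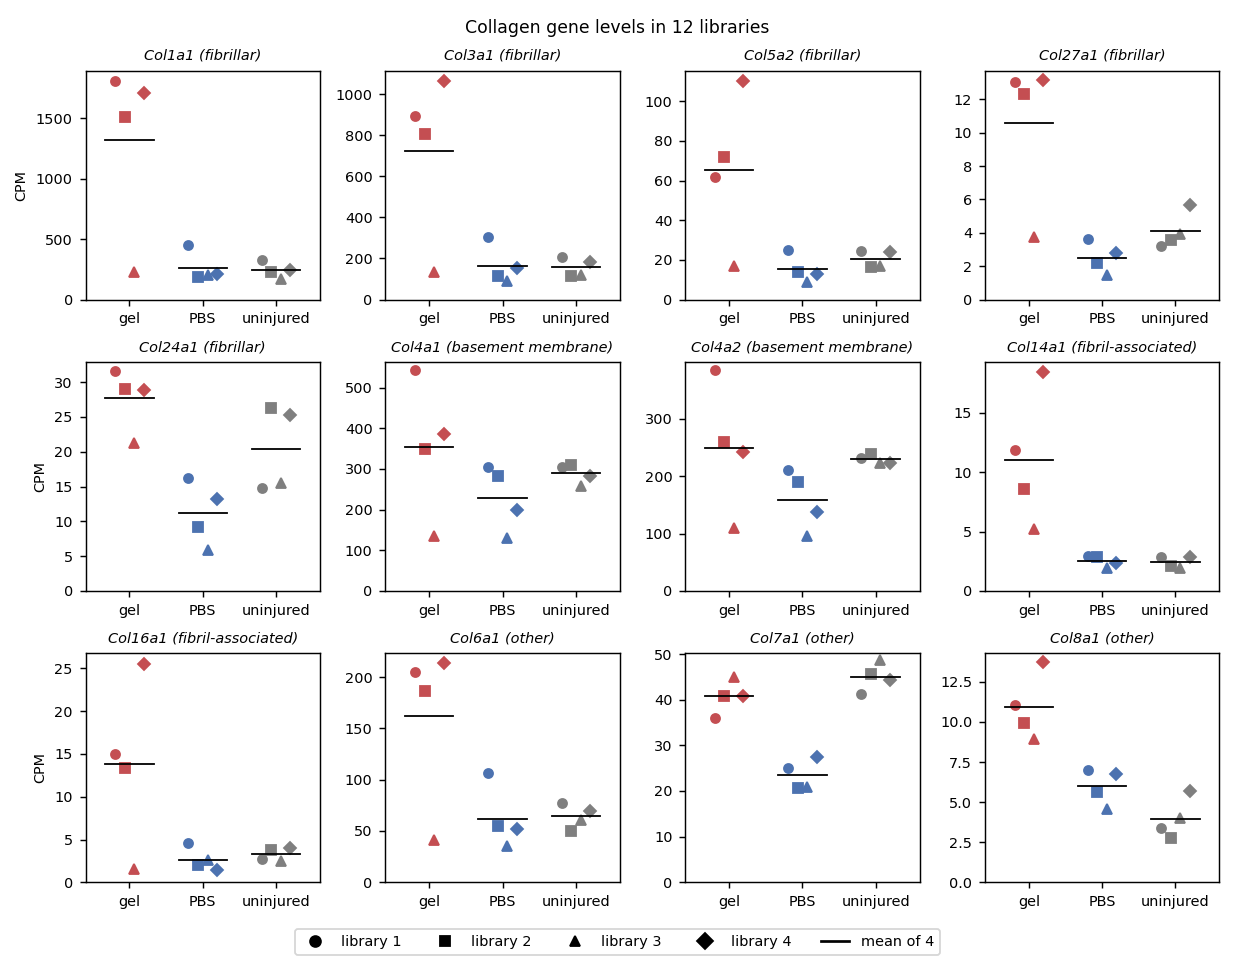
Level in CPM (vertical axis, linear from 0, a scale for each gene) of 12 collagens in gel, PBS and uninjured libraries; each point is 1 library, its shape gives the library number and the line is the mean of 4. Gel library 3 (triangle) lies near the PBS libraries for Col1a1, Col3a1, Col4a1, Col16a1 and Col6a1, and above every PBS library for Col24a1, Col27a1, Col14a1, Col7a1 and Col8a1.

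The promoters of Col1a2 and Col3a1 are shown because both genes rose and both are main fibrillar chains, as RefSeq gives them for GRCm38.p6, from 250 bases before to 50 after the annotated start. Capitals mark the CCAAT box, searched as CCAAT and, on the other strand, ATTGG. The Col1a2 window is chr6:4505368-4505667 on the plus strand and the Col3a1 window chr1:45311288-45311587 on the plus strand.
Col1a2: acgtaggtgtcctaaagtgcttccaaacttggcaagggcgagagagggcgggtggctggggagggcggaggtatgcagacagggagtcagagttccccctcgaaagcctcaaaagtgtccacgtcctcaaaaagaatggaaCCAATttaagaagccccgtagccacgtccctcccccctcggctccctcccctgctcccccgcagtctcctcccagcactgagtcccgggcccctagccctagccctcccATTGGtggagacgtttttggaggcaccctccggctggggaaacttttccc
Col3a1: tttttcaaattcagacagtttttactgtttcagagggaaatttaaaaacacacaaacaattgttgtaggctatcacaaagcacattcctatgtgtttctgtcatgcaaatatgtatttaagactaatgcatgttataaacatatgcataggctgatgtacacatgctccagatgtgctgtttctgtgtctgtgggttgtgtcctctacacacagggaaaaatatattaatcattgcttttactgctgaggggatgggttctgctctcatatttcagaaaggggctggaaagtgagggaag
The Col1a2 window held 2 matches and the Col3a1 window 0. Over all 32851 mouse promoter windows of this length, 37.4% held at least 1 match, and of the 32 windows available for 29 of the 37 collagens 11 did. The letters GGGCGG or CCGCCC were in 19 of the 32 windows and 35.7% of all windows, and TATAAA or TTTATA in 3 of the 32 and 13.6% of all. Such matches describe the letters only. The table holds no window for Col1a1, Col5a2, Col12a1, Col14a1, Col22a1, Col2a1, Col4a3 and Col26a1.

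The chains of types V and XI, which form mixed fibrils with types I and II, rose except for Col5a3. Col5a2 had 61.6, 71.7, 16.7 and 110.4 CPM in gel libraries, 25.2, 13.7, 8.82 and 13.0 CPM in PBS libraries and 24.3, 16.3, 16.9 and 23.7 CPM in uninjured libraries. Only gel library 3 fell within the PBS range. The log2 fold change of Col5a2 was 2.10 (SE 0.50, adjusted p = 0.012), which passed under every setting run. Col5a1 rose by 1.42 on the log2 scale (SE 0.39, adjusted p = 0.020), with 31.3 CPM in gel library 3 and 103 to 134 CPM in the other gel libraries, against 23.2 to 55.2 CPM in PBS libraries. That call was lost without any 1 of gel libraries 1 and 4 or PBS libraries 2 and 3 (adjusted p 0.054 to 0.068). Col5a3 averaged 58.0 ± 23.9 CPM in gel legs, 35.0 ± 19.8 CPM in PBS legs and 48.05 ± 4.58 CPM in uninjured legs (SD, n = 4 each) and did not pass over PBS (log2 fold change 0.73, SE 0.42, adjusted p = 0.22). With the replicate block it did (0.80, adjusted p = 0.0062), gel being higher in 4 of 4 animals.

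Col11a1 encodes a type XI chain best known from cartilage. It had 4.56, 1.70, 2.32 and 4.52 CPM in gel libraries, 1.58, 0.109, 1.03 and 0.240 CPM in PBS libraries and 2.73, 1.32, 1.89 and 1.90 CPM in uninjured libraries. Every gel library was above every PBS library, and the log2 fold change of 2.12 (SE 0.58, adjusted p = 0.015) passed under every setting run. Col11a2 had a smaller difference, 0.83 (SE 0.29, adjusted p = 0.041), with 5.24 to 11.0 CPM in gel and 2.40 to 6.24 CPM in PBS libraries. Leaving out any 1 of gel libraries 2, 3 and 4, PBS libraries 2 and 3 or the 4 uninjured libraries ended that call (adjusted p 0.051 to 0.143), as did the replicate block (0.86, adjusted p = 0.12).

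Types XXIV and XXVII are fibrillar collagens of a separate branch with an altered triple helix, and both rose in every animal. Col27a1 had 13.0, 12.4, 3.72 and 13.1 CPM in gel libraries, 3.65, 2.17, 1.49 and 2.76 CPM in PBS libraries and 3.24, 3.60, 3.92 and 5.70 CPM in uninjured libraries. Only just above PBS library 1 stood gel library 3, and the log2 fold change was 2.06 (SE 0.37, adjusted p = 0.0024). Col24a1 had 31.6, 29.0, 21.3 and 28.9 CPM in gel libraries, 16.3, 9.19, 5.84 and 13.3 CPM in PBS libraries and 14.8, 26.2, 15.6 and 25.3 CPM in uninjured libraries. Its gel libraries were all above its PBS libraries, gel library 3 was close to the others, and the log2 fold change was 1.31 (SE 0.29, adjusted p = 0.0055). Both calls passed under every setting run.

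Col2a1, the cartilage collagen, rested on few reads. It had 14, 10, 4 and 24 counts in gel libraries, 2, 4, 0 and 0 in PBS libraries and 10, 10, 10 and 0 in uninjured libraries. Although the groups did not overlap in CPM and the test passed over PBS (log2 fold change 2.79, SE 0.95, adjusted p = 0.037), 8 of the 11 single-library omissions in which it could be tested ended the call, namely gel libraries 1 and 2, PBS libraries 1, 3 and 4 and uninjured libraries 1, 2 and 3 (adjusted p 0.056 to 0.102). Without gel library 4, and in the gel and PBS libraries alone, it was below the filter and not tested. Of the cartilage markers, Acan, Matn3 and Hapln1 were below the filter, and Sox9 had 3.93 to 9.08 CPM in gel, 2.86 to 5.76 CPM in PBS and 5.27 to 19.1 CPM in uninjured libraries. Of the 2 tested cartilage markers, Sox9 and Chad, 0 were called in gel over PBS. Against uninjured muscle 1 of 2 was lower in gel and 1 of 2 in PBS, where 11.1% and 3.39% of all tested genes were lower.

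The main type IV chains, which form the network of the basement membrane, did not pass over PBS or uninjured muscle. Col4a1 had 542, 350, 136 and 387 CPM in gel libraries, 304, 283, 129.6 and 200.1 CPM in PBS libraries and 306, 310, 258 and 283 CPM in uninjured libraries. Gel libraries 1, 2 and 4 were above every PBS library, and gel library 3 was just above PBS library 3, the leg of the same animal. The log2 fold change over PBS was 0.62 (SE 0.35, adjusted p = 0.20). Col4a2, the other chain of that trimer, had 385, 259, 109.9 and 243 CPM in gel libraries, 211, 190, 96.1 and 138 CPM in PBS libraries and 232, 238.5, 224 and 223 CPM in uninjured libraries. Its log2 fold change over PBS was 0.65 (SE 0.32, adjusted p = 0.14), and the libraries lay in nearly the same order as for Col4a1.

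Both type IV chains depended on the model. Without gel library 3, Col4a1 passed at 0.88 (adjusted p = 0.015) and Col4a2 at 0.88 (adjusted p = 0.0087). With the replicate block Col4a2 passed at 0.58 (adjusted p = 0.030), gel being higher in 4 of 4 animals for both chains. Over uninjured muscle the log2 fold changes were 0.29 for Col4a1 (adjusted p = 0.58) and 0.12 for Col4a2 (adjusted p = 0.81). The endothelial markers, another source of type IV collagen in muscle, had 0 of 6 genes called in gel over PBS. Of all tested genes 16.6% were higher and 13.2% lower there. The 6 endothelial markers summed to 199 to 555 CPM in gel, 284 to 520 CPM in PBS and 343 to 426 CPM in uninjured libraries.

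Col4a1 and Col4a2 lie head to head, and their RefSeq promoter windows are shown for that arrangement, beside the parallel values of the chains. The Col4a1 window is chr8:11312777-11313076 on the minus strand and the Col4a2 window chr8:11312555-11312854 on the plus strand, in GRCm38.p6. Capitals again mark CCAAT or ATTGG.
Col4a1: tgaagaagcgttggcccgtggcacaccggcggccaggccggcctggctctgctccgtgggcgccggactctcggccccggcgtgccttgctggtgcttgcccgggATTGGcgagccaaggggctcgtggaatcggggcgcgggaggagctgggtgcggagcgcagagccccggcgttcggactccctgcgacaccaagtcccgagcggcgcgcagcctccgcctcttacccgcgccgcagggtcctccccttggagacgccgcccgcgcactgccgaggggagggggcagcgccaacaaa
Col4a2: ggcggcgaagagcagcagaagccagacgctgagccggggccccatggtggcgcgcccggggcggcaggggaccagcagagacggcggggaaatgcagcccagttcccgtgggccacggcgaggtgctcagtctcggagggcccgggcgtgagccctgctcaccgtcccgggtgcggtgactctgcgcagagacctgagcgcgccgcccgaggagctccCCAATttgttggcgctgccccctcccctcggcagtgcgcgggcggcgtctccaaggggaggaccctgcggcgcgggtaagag
The windows shared 78 bases, and the annotated starts overlapped by 22 bases. Each window held 1 CCAAT match. Because the counting strand is not given, reads from the overlap cannot be assigned to one of the pair with certainty.

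The remaining type IV chains were low. Col4a5, an X-linked chain best known from kidney basement membrane, had 2.96, 3.88, 5.62 and 3.86 CPM in gel libraries, 3.36, 0.544, 1.03 and 1.68 CPM in PBS libraries and 0.796, 0.720, 0.811 and 1.90 CPM in uninjured libraries. Here gel library 3 was the highest of all and PBS library 1 reached into the gel range. It rose over PBS by 1.29 on the log2 scale (SE 0.46, adjusted p = 0.046) and over uninjured muscle by 1.94 (SE 0.48, adjusted p = 0.0087). The call over PBS was lost without any 1 of gel libraries 2, 3 and 4, PBS libraries 2, 3 and 4 or uninjured libraries 1, 2 and 3 (adjusted p 0.056 to 0.122), and with the replicate block (1.5, adjusted p = 0.055), while the call over uninjured muscle passed under all 19 settings run. Col4a3 had 1.72 to 5.62 CPM and Col4a4 1.03 to 2.72 CPM over the gel and PBS libraries, and neither passed in any comparison.

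Among fibril-associated collagens, Col14a1, which coats fibrils and is expressed by fibroblasts, had the clearest rise. It had 11.8, 8.56, 5.19 and 18.5 CPM in gel libraries, 2.91, 2.83, 1.95 and 2.34 CPM in PBS libraries and 2.84, 2.10, 1.96 and 2.85 CPM in uninjured libraries. Every gel library, library 3 included, was above every PBS and uninjured library. The log2 fold change was 2.14 over PBS (SE 0.32, adjusted p = 0.0013) and 2.18 over uninjured muscle (SE 0.32, adjusted p = 0.00044), and both passed under every setting run.

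Col16a1, a minor component of fibrils, had 15.0, 13.3, 1.59 and 25.6 CPM in gel libraries, 4.59, 2.01, 2.58 and 1.44 CPM in PBS libraries and 2.73, 3.78, 2.43 and 4.05 CPM in uninjured libraries. Gel library 3 was below 3 of the 4 PBS libraries and below every uninjured library, unlike for Col14a1. It rose over PBS (log2 fold change 2.38, SE 0.63, adjusted p = 0.017), a call lost without gel library 4 or PBS library 2 (adjusted p 0.0503 and 0.0505), in the 2 groups alone (0.055), in voom (2.09, adjusted p = 0.15) and with the replicate block (2.07, adjusted p = 0.15). Col20a1 had 8.85 to 11.6 CPM in gel, 5.04 to 8.43 CPM in PBS and 4.68 to 6.00 CPM in uninjured libraries, with no overlap between gel and either other group. Its log2 fold change over PBS was 0.61 (SE 0.18, adjusted p = 0.022), lost without any 1 of gel libraries 1 and 4 or PBS libraries 3 and 4 (adjusted p 0.060 to 0.072) and with the replicate block.

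Col12a1, Col19a1, Col9a1 and Col22a1 did not pass in edgeR. Col19a1 averaged 2.57 ± 1.87 CPM in gel, 2.88 ± 2.72 CPM in PBS and 1.44 ± 0.687 CPM in uninjured muscle (SD, n = 4 each). Its log2 fold change over PBS was -0.15 (SE 0.59, adjusted p = 0.87). Col12a1, which is known to bridge fibrils and other matrix in tendon and muscle, had 4.21, 4.45, 2.56 and 9.503 CPM in gel libraries, 3.65, 1.30, 2.98 and 0.240 CPM in PBS libraries and 3.07, 5.76, 2.43 and 4.69 CPM in uninjured libraries. The groups overlapped and the log2 fold change over PBS was 1.34 (SE 0.59, adjusted p = 0.10), while DESeq2 called it (1.33, adjusted p = 0.048). Col9a1, a chain of type IX best known from cartilage, had 31, 38, 34 and 13 counts in gel libraries, 34, 31, 34 and 37 in PBS libraries and 39, 41, 46 and 49 in uninjured libraries. In CPM every gel library was below every uninjured library (log2 fold change -0.85, SE 0.38, adjusted p = 0.11), and without gel library 3 it passed as lower (-1.05, adjusted p = 0.045). Col22a1, a collagen of the junction between muscle and tendon, had 12.9, 14.0, 13.0 and 9.21 CPM in gel libraries, 43.2, 5.33, 6.87 and 10.7 CPM in PBS libraries and 28.9, 26.9, 21.6 and 29.8 CPM in uninjured libraries. One PBS library set its mean: the log2 fold change was -0.44 over PBS (SE 0.57, adjusted p = 0.60), and without PBS library 1 it was 0.68 and passed (adjusted p = 0.040).

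Every gel library had less Col22a1 than every uninjured library. The fitted difference was -1.13 (SE 0.57, adjusted p = 0.17), and it passed without PBS library 1 at -1.14 (adjusted p = 0.0019), since that library enters the shared estimate of spread. The tendon markers moved in the same direction beside it. Their 5 tested genes summed to 96.5 to 137 CPM in gel, 75.2 to 125 CPM in PBS and 183 to 240 CPM in uninjured libraries. Against uninjured muscle 2 of 5 were lower in gel and 3 of 5 in PBS, where 11.1% and 3.39% of all tested genes were lower. The tendon gene Tnmd had 1.34 to 4.81 CPM in gel, 0.687 to 2.96 CPM in PBS and 3.29 to 7.62 CPM in uninjured libraries. Whether these go together with Col22a1 was not tested.

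Type VI, the microfibril next to the basement membrane, came close to the threshold. Col6a1 had 205, 186, 40.9 and 214 CPM in gel libraries, 106, 54.4, 35.5 and 52.0 CPM in PBS libraries and 77.4, 50.0, 60.8 and 69.5 CPM in uninjured libraries. Gel libraries 1, 2 and 4 were above every PBS library, gel library 3 was not, and the log2 fold change was 1.38 (SE 0.48, adjusted p = 0.051). Col6a1 passed without gel library 3 (1.69, adjusted p = 0.0014), without PBS library 1 (1.76, adjusted p = 0.024), with the replicate block (1.25, adjusted p = 0.027) and in DESeq2 (1.36, adjusted p = 0.020).

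Col6a2 had 355, 313, 65.6 and 330.2 CPM in gel libraries, 164, 92.0, 63.5 and 92.2 CPM in PBS libraries and 116, 69.2, 79.6 and 100.7 CPM in uninjured libraries. It passed narrowly over PBS (log2 fold change 1.37, SE 0.47, adjusted p = 0.048), and the call was lost without any library other than gel library 3 and PBS library 1 (adjusted p 0.058 to 0.132). Col6a3 had 72.2, 83.6, 17.5 and 116.5 CPM in gel libraries and 64.0, 27.7, 14.5 and 21.1 CPM in PBS libraries (log2 fold change 1.19, SE 0.57, adjusted p = 0.14), and 21.6 to 36.0 CPM in uninjured libraries. It passed without gel library 3 (1.5, adjusted p = 0.028) or PBS library 1 (1.77, adjusted p = 0.037). Col6a6, a chain thought able to stand in for the third, had 1.47 to 4.19 CPM in gel, 1.20 to 5.38 CPM in PBS and 1.08 to 2.27 CPM in uninjured libraries and did not pass.

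Col7a1, the anchoring-fibril collagen best known from skin, was low in PBS muscle. It had 36.0, 40.9, 45.05 and 40.9 CPM in gel libraries, 25.0, 20.7, 20.9 and 27.5 CPM in PBS libraries and 41.2, 45.5, 48.7 and 44.3 CPM in uninjured libraries. PBS libraries were below every gel and every uninjured library, and gel library 3 was the highest gel library. Gel was above PBS by 0.79 on the log2 scale (SE 0.12, adjusted p = 0.0013), PBS was below uninjured muscle (log2 fold change -0.93, SE 0.12, adjusted p = 0.00046), and gel against uninjured muscle gave -0.14 (SE 0.12, adjusted p = 0.40). The first 2 comparisons share the PBS libraries. Both calls passed under every setting run. A microRNA gene, Mir711, overlaps its exons in the GENCODE M21 annotation.

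Type VIII, a short-chain network collagen of vessel walls and the eye, rose in both chains. Col8a1 had 11.1, 9.93, 8.91 and 13.7 CPM in gel libraries, 7.01, 5.60, 4.58 and 6.78 CPM in PBS libraries and 3.41, 2.76, 3.99 and 5.70 CPM in uninjured libraries. Gel library 3 was in step with the others, and the log2 fold change was 0.86 over PBS (SE 0.23, adjusted p = 0.011) and 1.46 over uninjured muscle (SE 0.23, adjusted p = 0.00066), both passing under every setting run. Col8a2 rested on few reads, with 24, 4, 4 and 40 counts in gel libraries, 6, 0, 0 and 0 in PBS libraries and 10, 14, 12 and 10 in uninjured libraries. The fitted value was 3.26 over PBS (SE 0.96, adjusted p = 0.020), and it was lost without any 1 of gel libraries 1 and 4 or PBS libraries 2, 3 and 4 (adjusted p 0.0502 to 0.075). In the gel and PBS libraries alone it was below the filter and not tested.

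The multiplexins, proteoglycan collagens of the basement membrane zone, differed from each other. Col18a1, whose end fragment is endostatin, had 34.7, 49.9, 5.37 and 61.1 CPM in gel libraries, 12.8, 9.24, 7.04 and 6.66 CPM in PBS libraries and 10.6, 10.1, 9.94 and 11.3 CPM in uninjured libraries. Gel library 3 was below every library of either other group. The log2 fold change over PBS was 2.08 (SE 0.55, adjusted p = 0.019), lost without gel library 4 or PBS library 3 (adjusted p 0.061 and 0.052), in the 2 groups alone (0.059), in voom (1.69, adjusted p = 0.12) and with the replicate block (1.75, adjusted p = 0.14). Col15a1, of muscle and capillary basement membrane, had 156, 100.7, 42.0 and 106 CPM in gel libraries, 90.4, 66.3, 34.1 and 56.5 CPM in PBS libraries and 49.1, 42.2, 38.7 and 49.7 CPM in uninjured libraries. It did not pass over PBS (0.71, SE 0.35, adjusted p = 0.15) but did without gel library 3 (0.95, adjusted p = 0.016) and with the replicate block (0.65, adjusted p = 0.014).

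Of the transmembrane collagens, Col23a1 rose. It had 7.18, 5.87, 4.09 and 8.34 CPM in gel libraries, 3.41, 3.86, 1.60 and 2.28 CPM in PBS libraries and 1.99, 1.32, 1.62 and 1.96 CPM in uninjured libraries. No gel library reached down to a PBS library, and the log2 fold change was 1.19 over PBS (SE 0.30, adjusted p = 0.0088) and 1.88 over uninjured muscle (SE 0.31, adjusted p = 0.00082), passing under every setting run. Col13a1, a collagen of the neuromuscular junction, had 0.794 to 1.89 CPM in gel and 0.458 to 0.960 CPM in PBS libraries (0.68, SE 0.43, adjusted p = 0.24). Uninjured libraries had 0.811 to 1.77 CPM of it, and gel over uninjured muscle gave -0.04 (adjusted p = 0.96). Col25a1, known in the mouse for motor axon entry into muscle, had 10 to 16 counts in gel and 0 to 10 in PBS libraries (1.07, SE 0.75, adjusted p = 0.30). Uninjured libraries had 2 to 14 counts of it, and gel over uninjured muscle gave 0.32 (adjusted p = 0.78).

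Col26a1 and Col28a1 belong to no larger class. Col26a1 had 5.07, 4.12, 5.80 and 10.4 CPM in gel libraries, 2.86, 0.816, 0.114 and 1.68 CPM in PBS libraries and 1.25, 0.5999, 0.406 and 2.03 CPM in uninjured libraries. The gel libraries were above all others, and the log2 fold change of 2.20 over PBS (SE 0.64, adjusted p = 0.022) was lost without gel library 4 or PBS library 2 (adjusted p 0.076 and 0.066). Col28a1, known from Schwann cells of peripheral nerve, had 38, 35, 6 and 65 counts in gel libraries, 28, 6, 0 and 4 in PBS libraries and 17, 30, 27 and 25 in uninjured libraries. Its log2 fold change over PBS was 1.71 (SE 0.74, adjusted p = 0.094). It passed without gel library 3 (2.01, adjusted p = 0.022), without PBS library 1 (3.07, adjusted p = 0.014) and with the replicate block (2.13, adjusted p = 0.036). Against uninjured muscle the value was 0.10 in gel (SE 0.69, adjusted p = 0.93) and -1.61 in PBS (SE 0.75, adjusted p = 0.22).

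Against uninjured muscle, 16 of the 37 collagens rose in gel and 0 fell, where 14.5% of all tested genes were higher and 11.1% lower. At an unadjusted p under 0.05 there were 18 higher and 1 lower, where 21.0% of all tested genes were higher and 17.6% lower. DESeq2 called 18 higher and 0 lower (16.1% and 13.3% of all genes), and voom 8 higher and 0 lower (10.1% and 11.8%). By class the counts were 6 of 11 fibrillar, 1 of 5 basement membrane, 3 of 7 fibril-associated and 6 of 14 other chains, with 2 to 6 fibrillar and 3 to 8 other chains on leaving out 1 library. The median log2 fold change was 0.86, against 0.03 over all tested genes. Col1a1 rose by 2.44 (SE 0.56, adjusted p = 0.011), Col27a1 by 1.36 (SE 0.36, adjusted p = 0.013) and Col26a1 by 2.56 (SE 0.66, adjusted p = 0.014), which together with Col14a1, Col20a1, Col23a1, Col4a5 and Col8a1 passed under every setting run.

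The other 8 of the 16 were lost in voom (adjusted p 0.053 to 0.22) and on leaving out single libraries. They were Col1a2 (1.98, adjusted p = 0.017), lost without gel library 4 (0.060), and Col3a1 (2.21, adjusted p = 0.021), lost without gel library 4 or uninjured library 2 or 3 (0.059 to 0.066). Col5a1 (1.37, adjusted p = 0.026) was lost without any 1 of gel libraries 1, 2 and 4 and uninjured libraries 2, 3 and 4 (0.058 to 0.086). Col5a2 (1.68), Col6a2 (1.54), Col15a1 (1.17), Col16a1 (2.10) and Col18a1 (1.85), with adjusted p from 0.030 to 0.034, were each lost without any 1 of gel libraries 1, 2 and 4 and the 4 uninjured libraries (0.052 to 0.1). Without gel library 4 the count was 8 and without uninjured library 2 or 3 it was 9. Over all genes 1951 were called higher in the main fit, and 1236, 1485 and 1440 in these fits.

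Both comparisons share the gel libraries, and 15 collagens passed in both. Col15a1 passed over uninjured muscle alone, and Col11a1, Col11a2, Col2a1, Col24a1, Col7a1 and Col8a2 passed over PBS alone. For these 6 the PBS mean lay below the uninjured mean. Choosing them by these calls favours that order, so it is not a separate result. Col24a1, for example, averaged 27.7 ± 4.45 CPM in gel, 11.2 ± 4.58 CPM in PBS and 20.4 ± 6.13 CPM in uninjured muscle (SD, n = 4 each). Col11a1 averaged 3.27 ± 1.48, 0.740 ± 0.692 and 1.96 ± 0.580 CPM in gel, PBS and uninjured muscle. Of these 6, Col7a1 alone passed in PBS over uninjured muscle.

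PBS and uninjured muscle differed in 1 collagen, Col7a1, which fell in PBS, while 2.79% of all tested genes were higher and 3.39% lower. At an unadjusted p under 0.05 there were 2 higher and 6 lower of 37, where 10.9% of all tested genes were higher and 11.5% lower. DESeq2 called 0 higher and 3 lower (5.03% and 5.68% of all genes), and voom 0 higher and 2 lower (2.42% and 3.34%). The median log2 fold change of the collagens was -0.28. Col1a1 averaged 262 ± 126 CPM in PBS and 243 ± 66.4 CPM in uninjured muscle (SD, n = 4 each; log2 fold change 0.11, adjusted p = 0.93), and without PBS library 1 the value was -0.28. Col24a1 (log2 fold change -0.87, adjusted p = 0.089) and Col8a2 (-3.05, adjusted p = 0.077) passed in DESeq2 and not here, and Col8a2 also passed in voom (-3.81, adjusted p = 0.045) and without gel library 3 (-3.04, adjusted p = 0.040) or PBS library 1 (-6.71, adjusted p = 0.034).

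Fibrillar chains made up a larger share of the collagen reads in gel muscle. They took 66.6%, 69.0%, 53.7% and 71.5% of collagen counts in gel libraries 1 to 4, against 52.5%, 38.7%, 50.7% and 47.8% in PBS libraries and 48.6%, 41.8%, 40.7% and 45.4% in uninjured libraries. Each gel library, library 3 included, was above every PBS and uninjured library. Basement membrane chains took 16.6%, 13.0%, 22.5% and 11.2% in gel libraries, against 23.2%, 37.4%, 26.0% and 28.0% in PBS libraries and 29.9%, 37.9%, 36.3% and 31.9% in uninjured libraries, with every gel library below every other library. Fibril-associated chains averaged 1.65% ± 0.938, 2.41% ± 0.444 and 2.97% ± 0.281, and other chains 17.4% ± 2.35, 21.6% ± 0.586 and 18.9% ± 1.34, in gel, PBS and uninjured muscle (SD, n = 4 each). Shares of counts weigh long transcripts more than short ones, and were compared between libraries only.

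**Figure D4:**
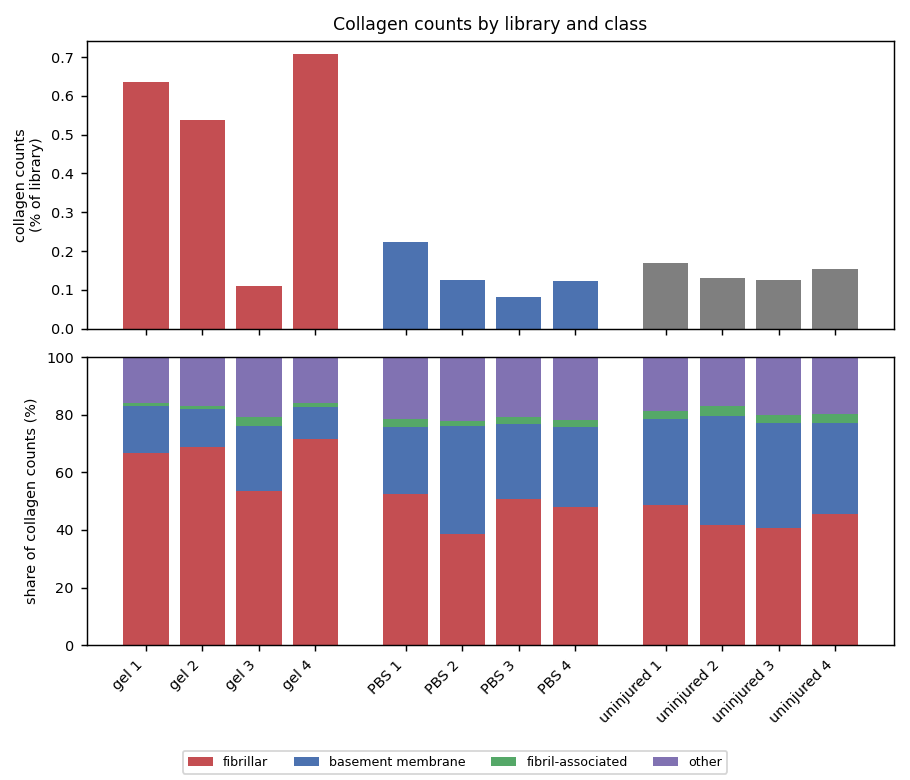
Collagen counts as a percent of all counts in each library (top) and the percent of those collagen counts in each class (bottom, stacked to 100), for gel, PBS and uninjured libraries 1 to 4. Gel library 3 has a total of 0.111% but a fibrillar share of 53.7%, above every PBS and uninjured library.

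Per kilobase of annotated exon, which allows chains to be set beside each other, the leading chain was not the same in every group. In gel muscle Col1a1 led with 201 ± 112 CPM per kilobase, followed by Col3a1 with 73.8 ± 41.5, Col1a2 with 49.6 ± 27.5 and Col4a1 with 47.4 ± 22.4 (SD, n = 4). In PBS muscle Col1a1 had 39.9 ± 19.3 and Col4a1 30.7 ± 10.8, and in uninjured muscle Col4a1 had 38.7 ± 3.20, Col1a1 36.96 ± 10.1 and Col4a2 34.6 ± 1.12 (SD, n = 4 each). Neighbours in these orders overlapped between libraries, so Col1a1 and Col4a1 were not separated in PBS or uninjured muscle. The lengths are unions of GENCODE M21 exons, an annotation of another build than the counts, and they include exons of minor transcripts, which lowers the value per kilobase.

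Ratios of 2 chains within a library do not depend on depth. The ratio of Col4a1 to Col1a1 counts was 0.299, 0.231, 0.587 and 0.226 in gel libraries, 0.675, 1.55, 0.647 and 0.934 in PBS libraries and 0.929, 1.36, 1.53 and 1.15 in uninjured libraries. Every gel library was below every other library. The difference in mean log2 ratio was -1.53 in gel against PBS and -1.98 in gel against uninjured muscle (exact two-sided permutation p = 0.0286 each, the smallest that 4 against 4 allows, adjusted p = 0.098 over 24 tests). The ratio of Col5a2 to Col5a1, which make up the main type V trimer, was 0.478 to 0.821 in gel and 0.350 to 0.457 in PBS libraries without overlap, a log2 difference of 0.63 (exact permutation p = 0.0286, adjusted p = 0.098).

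Col1a1 to Col1a2, chains of 1 trimer, had mean count ratios of 2.04 in gel, 1.80 in PBS and 1.54 in uninjured muscle, with overlap in each comparison. Col4a1 to Col4a2 had mean ratios of 1.39, 1.43 and 1.26 in gel, PBS and uninjured muscle, PBS being above uninjured in every library (log2 difference 0.19, exact permutation p = 0.0286, adjusted p = 0.098). Col6a1 to Col6a2 was lower in gel (0.611) and in PBS (0.589) than in uninjured muscle (0.710), without overlap in either comparison. Col14a1 to Col12a1 was 1.93 to 2.81 in gel and 0.365 to 0.926 in uninjured libraries, a log2 difference of 1.75, with a PBS range of 0.654 to 9.75. Over 8 ratios and 3 comparisons no adjusted p was under 0.05, and 2, 3 and 2 of the 8 had an unadjusted p under 0.05 in gel against PBS, gel against uninjured and PBS against uninjured. Within animals, sign flips over 4 pairs allow no p below 0.125.

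**Figure D5:**
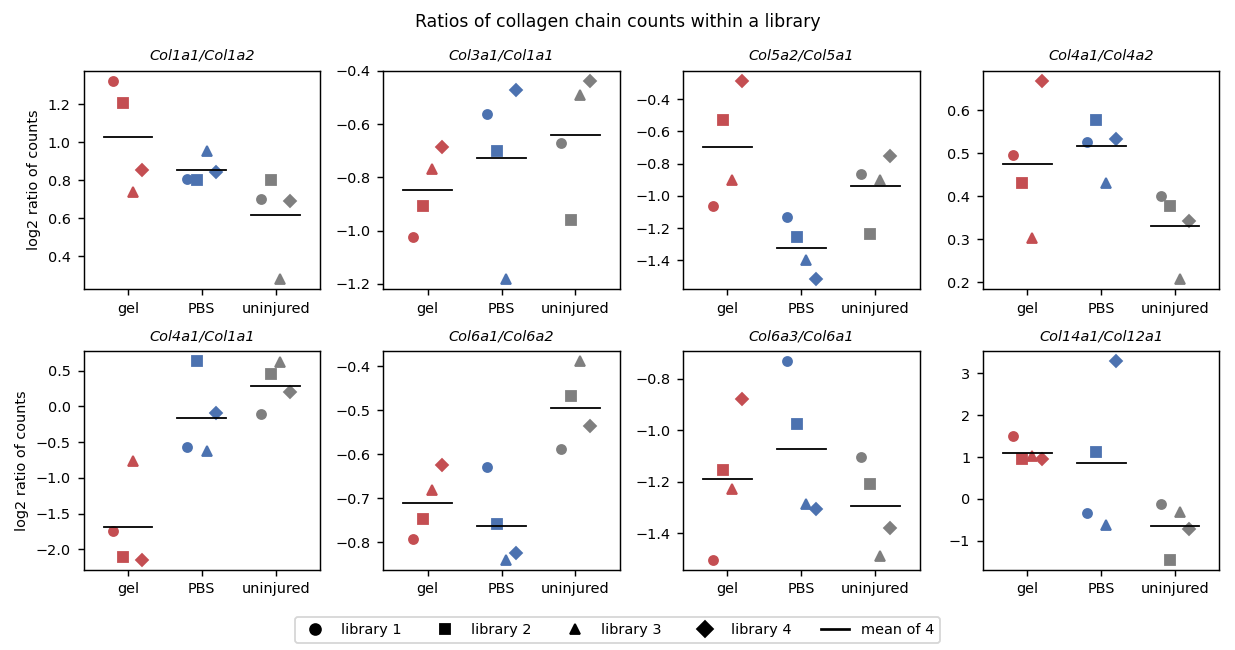
Log2 ratio of the counts of 2 collagen chains in the same library (vertical axis) for 8 chain pairs, in gel, PBS and uninjured libraries; each point is 1 library, its shape gives the library number and the line is the mean of 4. Col4a1/Col1a1 is lower in all 4 gel libraries than in any other library, and Col5a2/Col5a1 higher in all gel than in all PBS libraries.

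Of 27 listed genes that make and process collagen, 24 were tested, and 10 rose and 3 fell in gel over PBS, with a median log2 fold change of 0.33. The background was 16.6% of all tested genes higher and 13.2% lower, and the 3 that fell were close to the latter. Without gel library 2, and in the 2 groups alone, 7 rose and 1 fell. Over all genes 1511 and 1513 were higher and 1283 and 1046 lower in these fits, against 2236 and 1786 in the main fit. Fkbp10, a chaperone of procollagen folding, had 26.5, 26.1, 7.14 and 28.1 CPM in gel libraries, 7.36, 6.25, 5.90 and 7.02 CPM in PBS libraries and 4.62 to 7.45 CPM in uninjured libraries (1.73, SE 0.33, adjusted p = 0.0035). Gel library 3 lay inside the PBS range. Serpinh1, the collagen chaperone HSP47, had 143, 127, 49.5 and 114 CPM in gel and 40.5 to 61.4 CPM in PBS libraries (1.15, SE 0.25, adjusted p = 0.0058). Crtap, part of the prolyl 3-hydroxylation complex, rose by 1.33 (SE 0.28, adjusted p = 0.0043) and Plod2, which hydroxylates lysines for cross-linking, by 1.07 (SE 0.22, adjusted p = 0.0035). The procollagen proteinases Bmp1 and Adamts14 rose by 1.28 (SE 0.31, adjusted p = 0.010) and 1.67 (SE 0.38, adjusted p = 0.0054).

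The 3 that fell were P4ha2, a prolyl 4-hydroxylase subunit, and Mia3 and Mia2, which help load procollagen for secretion. P4ha2 averaged 13.3 ± 0.923 CPM in gel, 17.9 ± 3.34 CPM in PBS and 23.8 ± 1.44 CPM in uninjured muscle, and Mia3 averaged 119.7 ± 28.3 CPM in gel, 175 ± 1.63 CPM in PBS and 163 ± 17.7 CPM in uninjured muscle (SD, n = 4 each). The call of P4ha2 was lost without any 1 of gel library 2 and PBS libraries 2 and 3 (adjusted p 0.055 to 0.084) and with the replicate block (adjusted p = 0.088). The call of Mia2 was lost without any 1 of 10 of the 12 libraries and with the replicate block (adjusted p = 0.11). P4ha1, the other main catalytic subunit of that enzyme, averaged 19.4 ± 2.15, 23.4 ± 1.71 and 23.9 ± 3.67 CPM in gel, PBS and uninjured muscle and did not pass. Over uninjured muscle 7 of the 24 rose and 2 fell, where the background was 14.5% higher and 11.1% lower. Those counts were 12 and 5 without gel library 3, and 4 and 1 without any 1 of gel libraries 1, 2 and 4. Over all genes 2841 were higher and 2500 lower without gel library 3. Without any 1 of the other gel libraries 1236 to 1803 were higher and 1039 to 1463 lower. Between PBS and uninjured muscle 0 passed in edgeR, DESeq2 or voom, where edgeR called 2.79% of all tested genes higher and 3.39% lower. At an unadjusted p under 0.05, 1 of 24 was lower, where 11.5% of all tested genes were.

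Of 12 listed collagen receptors and uptake genes 11 were tested, and 4 rose and 0 fell in gel over PBS, as in DESeq2 and voom (5 higher and 0 lower at an unadjusted p under 0.05). The background was 16.6% of all tested genes higher and 13.2% lower, and 22.9% and 18.9% at the unadjusted p. Lair1, an inhibitory collagen receptor of leukocytes, had 3.87, 10.03, 0.855 and 8.34 CPM in gel and 0 to 0.296 CPM in PBS libraries (5.66, SE 0.97, adjusted p = 0.0024). Mrc1, the mannose receptor of macrophages, had 12.5, 25.3, 5.49 and 23.0 CPM in gel and 1.83 to 4.29 CPM in PBS libraries (2.39, SE 0.42, adjusted p = 0.0028). Gel library 3 was the lowest gel library for both and above every PBS library. Mrc2, which takes up collagen in fibroblasts, rose by 1.31 (SE 0.32, adjusted p = 0.010), and Ddr2, a receptor kinase for fibrillar collagen, by 1.00 (SE 0.27, adjusted p = 0.014). Over uninjured muscle 5 rose and Adgrg1, a receptor for type III collagen, fell (-1.30, adjusted p = 0.0019), where 14.5% of all tested genes were higher and 11.1% lower. Adgrg1 also fell in PBS over uninjured muscle (-0.89, adjusted p = 0.038), where 3.39% of all tested genes were lower. That call was lost without any 1 of PBS libraries 1 and 4 and uninjured libraries 1, 2 and 4. In gel over PBS Adgrg1 did not pass (-0.41, adjusted p = 0.20).

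Some markers of cell types moved beside the collagens. In gel over PBS 16.6% of all tested genes were higher and 13.2% lower. At an unadjusted p under 0.05 these shares were 22.9% and 18.9%. Macrophage markers rose in 8 of 8 genes and proliferation genes in 4 of 4 in gel over PBS, as in DESeq2, while voom called 6 macrophage genes and 1 proliferation gene. Of the 6 muscle-fibre markers 2 fell and 1 rose in gel over PBS, as in voom. In DESeq2 and at an unadjusted p under 0.05, 4 were lower and 1 higher. In gel over uninjured muscle 4 fell and 0 rose (0 higher at an unadjusted p under 0.05 and in DESeq2 and voom). In PBS over uninjured muscle 2 of the 6 fell and 0 rose, where 2.79% of all tested genes were higher and 3.39% lower. Over uninjured muscle 14.5% of all tested genes were higher in gel and 11.1% lower. The 6 markers summed to 92870 to 122000 CPM in gel, 116200 to 147200 CPM in PBS and 145000 to 164000 CPM in uninjured libraries. Proliferation genes summed to 4.09 CPM in gel library 3, at least 29.4 CPM in the other gel libraries, 1.60 to 5.40 CPM in PBS libraries and 1.55 to 3.66 CPM in uninjured libraries. Fibroblast and fibro-adipogenic markers rose in 2 of 7 genes (3 in DESeq2, 1 in voom and 4 at an unadjusted p under 0.05) and summed to 207 to 452 CPM in gel, 205 to 388 CPM in PBS and 289 to 369 CPM in uninjured libraries, gel library 3 being the lowest gel library. Pdgfra had 14.1, 14.7, 3.54 and 14.2 CPM in gel, 3.09 to 8.88 CPM in PBS and 7.26 to 9.89 CPM in uninjured libraries, while Dcn had 93.6 to 209 CPM in gel and 98.7 to 232 CPM in PBS libraries. Endothelial, mural, Schwann and tendon lists had 0 genes called in gel over PBS in edgeR and in voom, and DESeq2 called 1 tendon gene higher. Of 5 satellite-cell markers 1 was higher and 1 lower in edgeR, DESeq2 and voom. At an unadjusted p under 0.05 there were 3 of 5 tendon genes higher, 1 of 6 mural genes lower and 0 endothelial or Schwann genes. The part of these cells in the collagen differences was not tested.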

How the data were processed

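RNA was sequenced from 12 libraries of mouse tibialis anterior, with extraction and library construction by BGI per the labels' protocols. Each library has 1 file of read counts by gene symbol, deposited without normalization. The submitters' processing notes name STAR, edgeR and the build mm39, with no versions of the tools. The sources used here do not give the counter, annotation, strand setting or treatment of read pairs and multiple matches. Overlapping genes can therefore share reads. In GENCODE M21 exon overlaps exist for Col4a1 with Col4a2, and for Col3a1, Col5a1, Col4a3, Col6a6, Col7a1, Col15a1, Col20a1 and Col22a1 with a non-collagen gene. No coordinates are given for the counts, because the reference was of another build; promoter windows carry their own.

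Counts were tested with edgeR 4.0.16 in R 4.3.3: filterByExpr, trimmed mean of M values, a robust quasi-likelihood fit over the 12 libraries, 1 coefficient a group (9 residual degrees of freedom), F tests, and Benjamini-Hochberg adjustment over 13499 genes at a threshold of 0.05. "Rose" and "fell" refer to that threshold. The SE was taken as |log2 fold change| over the root of F. CPM are edgeR's, with a prior count of 2 on the log2 scale. Ratios of chains were compared by exact permutation of libraries. The fit was run on simulated counts with the same spread for every gene and group. Replicate libraries differed by more than sampling noise (smallest chi-square per gene 6.50, over genes with at least 20 counts in the pair). That smallest value was between uninjured libraries 3 and 4, and gel libraries 3 and 4 gave 118.7. The simulation did not have this uneven spread, so it cannot show how the fit behaves with it. Depth was 15626086 to 22182483 counts a library. The p-values of the main fit rest on a spread within groups that is estimated over all 12 libraries, 4 a group, and not on the 2 groups compared alone.

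Members and gene lists were chosen with earlier results of these data known. Values by library, range or group mean are given for fixed names among the collagens and for every other member past the threshold in any comparison. Col9a1 is given by count outside that rule. Of each pathway list, up to 6 genes with the smallest p in gel over PBS are named. P4ha2 and Adgrg1 are named from the comparisons with uninjured muscle, where P3h3 and Ddr1 also passed and are not described. P4ha1, Mia2, Mia3 and Sox9 were named for their role or list after values were seen. Gel and PBS libraries of the same number were read as 1 animal from the deposited names, which the labels do not state outright, and their deviations from the group means correlated at 0.143, -0.0559, 0.311 and 0.0797. Alternatives were DESeq2 1.42.0, limma 3.58.1 voom, other size factors, filters, the 2 groups alone, the replicate block, each library left out and, chosen after seeing the data, counts halved and rounded up.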

Additional observations from a re-analysis of the deposited data

Results flagged for a closer look

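In 10 of 99 sets of 4 libraries, over 33 named collagens in 3 groups, 1 library lay far from the other 3, with a gap to its neighbour above Dixon's critical share of the range. Chance alone marks about 1 in 20 such sets. No explanation was tested for any of them.

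Gel library 3 was the low library for 3 collagens. It had 3.72 CPM of Col27a1, against 12.4 to 13.1 CPM in the other gel libraries, 40.9 CPM of Col6a1, against 186 to 214 CPM, and 65.6 CPM of Col6a2, against 313 to 355 CPM.

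PBS library 1 was the high library for 4. It had 451 CPM of Col1a1, where the other PBS libraries had 183 to 214 CPM, 258 CPM of Col1a2, where they had 103 to 119.6 CPM, 43.2 CPM of Col22a1, where they had 5.33 to 10.7 CPM, and 0.296 CPM of Col8a2, where they had 0. PBS library 4 had 6.96 CPM of Col19a1, with 1.38 to 1.63 CPM in the other PBS libraries.

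Uninjured library 4 had 0 CPM of Col2a1, with 0.568 to 0.676 CPM in the other uninjured libraries, and 1.90 CPM of Col4a5, with 0.720 to 0.811 CPM in the others.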

How the results depend on the processing

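The number of collagens called in gel over PBS was 21, and 11 with the 2 groups alone, 18 with the replicate block, 17 in voom, 20 with counts halved (Col2a1 and Col8a2 fell below the filter in this fit and in both fits of gel and PBS alone) and 10 to 25 on leaving out 1 library; in every one of these settings 0 collagens were lower. Of the 21, 9 passed in all 20 alternatives. In gel over uninjured muscle the 16 calls became 8 in voom, 10 without a filter and 8 to 19 on leaving out 1 library, and 8 of the 16 passed in all 19 alternatives. In PBS over uninjured muscle the 1 call became 3 in DESeq2, 2 in voom and 1 to 3 on leaving out 1 library. Synthesis, processing and receptor genes numbered 15 in gel over uninjured muscle, with 9 to 23 on leaving out 1 library. In PBS over uninjured muscle their 1 call became 2 in DESeq2, 3 with the 2 groups alone, 2 with counts halved and 0 to 2 on leaving out 1 library. Over all genes, 4022 calls in gel over PBS became 2559 in a fit of those 2 groups and 2456 without gel library 4, 3449 in gel over uninjured muscle became 5341 without gel library 3 and 2275 without gel library 4, and 833 in PBS over uninjured muscle became 2339 with the 2 groups alone, 1417 in DESeq2, 1693 without gel library 3 and 378 to 543 without any 1 of PBS libraries 1 to 3 or uninjured libraries 2 to 4. Without a filter the median of all genes moved to 0.17 in gel over PBS and 0.14 in gel over uninjured muscle.

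Directions turned for values that were not called. Col22a1 in gel over PBS was 0.0241 in voom, 0.0778 with the replicate block and -0.74 to 0.68 on leaving out 1 library. Col19a1 was -0.15, with 0.0619 in voom and -0.79 to 0.73 on leaving out 1 library. Col4a2 in gel over uninjured muscle was -0.0152 in voom and -0.17 to 0.35 on leaving out 1 library, and Col1a1 in PBS over uninjured muscle -0.28 to 0.30. On leaving out 1 library, the log2 difference of Col4a1/Col4a2 ran from -0.108 to 0.0148 and that of Col14a1/Col12a1 from -0.255 to 1.04 in gel over PBS, that of Col6a3/Col6a1 from -0.00046 to 0.208 in gel over uninjured muscle and that of Col3a1/Col1a1 from -0.197 to 0.0615 in PBS over uninjured muscle. The causes were not tested. Levels near 1 CPM (Col2a1, Col8a2, Col25a1 and Col28a1) are limited by their counts.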
